A study of Homo sapiens with 16 samples.

Results

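The 6 genes LAYN, GFRA1, H2AFJ, EFEMP1, FAM19A4 and GABRA5 were taken from the 33121 rows of a count table of HAP1 cells, a near-haploid human line. They were chosen by their counts: every library with a deletion of SLC30A10, which encodes a manganese exporter, held 3 counts or fewer, while the control cells of that experiment expressed them. Poly-A RNA was sequenced in 16 libraries, which form 4 groups of 4. The groups are the SLC30A10 knockout, its own SLC30A10+/+ control (the SLC30A10 control), a knockout of another gene (the second knockout) and the wild-type control of that experiment (the second control). All were grown in the same medium with serum and antibiotics and no other agent is given. The labels give 1 cell line identifier for both control sets and a different one for each knockout, and do not say how many clones were used. A deletion and the line that carries it therefore cannot be told apart, and the labels do not say whether the libraries of a group came from separate cultures. The p-values then measure only the spread between these libraries. The genes had been grouped as lost in the SLC30A10 knockout alone, and the data go against this for EFEMP1 and GABRA5, which were also at 0 counts in every library of the second knockout. In what follows they are the 6 genes of the count rule.

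The 6 genes belong to different pathways. GFRA1 is the anchored co-receptor that presents glial cell line-derived neurotrophic factor (GDNF) to the kinase RET, a signal for the survival of neurons. GABRA5 is the alpha-5 subunit of the GABA-A receptor, a chloride channel opened by the transmitter GABA. FAM19A4, now named TAFA4, is a secreted chemokine-like protein made by sensory neurons. LAYN, or layilin, is a membrane receptor for hyaluronan that binds talin inside the cell. EFEMP1, or fibulin-3, is a glycoprotein of the extracellular matrix. H2AFJ, now named H2AJ, is a histone H2A variant whose gene lies apart from the large histone clusters.

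The genes lie on 6 chromosomes, by RefSeq on GRCh38.p14. LAYN is at chr11:111540280-111561745 on the plus strand and GFRA1 at chr10:116056925-116274705 on the minus strand. H2AFJ is at chr12:14774405-14778002 on the plus strand and EFEMP1 at chr2:55865967-55923782 on the minus strand. FAM19A4 is at chr3:68731766-68932547 on the minus strand and GABRA5 at chr15:26866719-26949208 on the plus strand. All 6 are protein-coding. In GENCODE v29, LAYN, GFRA1, H2AFJ, EFEMP1 and FAM19A4 overlap no gene of the count table. The use of strand in the counting is not stated, so for GABRA5 reads of a gene on the opposite strand cannot be told apart from its own.

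Promoter sequences of 3 of the genes, GFRA1, H2AFJ and FAM19A4, were in the RefSeq table. They are shown because these genes were at 0 or 1 counts in every SLC30A10 knockout library and were expressed in the other 12 libraries. Each run is the 250 bases before a transcript start, 5′ to 3′ on the strand of the gene, with every CG dinucleotide in capitals. GFRA1 has 4 such windows, and the one at chr10:116272226-116272475 was taken because all 5 of its GENCODE transcripts hold the sequence that follows it. The H2AFJ window is chr12:14774155-14774404, and 1 of its 3 transcripts holds the sequence that follows it. That of FAM19A4 is chr3:68932548-68932797, where 2 of 3 transcripts hold the sequence that follows. Whether the GENCODE transcripts start at these places was not checked.
GFRA1: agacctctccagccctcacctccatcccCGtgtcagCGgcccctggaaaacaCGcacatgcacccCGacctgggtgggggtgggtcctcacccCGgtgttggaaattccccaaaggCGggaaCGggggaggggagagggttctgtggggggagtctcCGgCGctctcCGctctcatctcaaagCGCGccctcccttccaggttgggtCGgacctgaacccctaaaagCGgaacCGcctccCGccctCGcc
H2AFJ: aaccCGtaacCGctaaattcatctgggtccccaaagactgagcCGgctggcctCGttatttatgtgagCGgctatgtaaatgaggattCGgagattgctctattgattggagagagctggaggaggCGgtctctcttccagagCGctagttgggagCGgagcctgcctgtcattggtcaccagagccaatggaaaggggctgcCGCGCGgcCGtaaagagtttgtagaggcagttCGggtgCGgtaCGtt
FAM19A4: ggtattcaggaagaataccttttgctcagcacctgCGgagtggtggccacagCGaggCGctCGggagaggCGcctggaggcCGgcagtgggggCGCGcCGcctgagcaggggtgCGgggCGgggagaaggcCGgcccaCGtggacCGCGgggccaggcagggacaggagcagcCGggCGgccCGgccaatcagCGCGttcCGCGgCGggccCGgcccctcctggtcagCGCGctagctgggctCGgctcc
The letters CG, which read the same on both strands, occur 17 times in the GFRA1 window, 16 times in that of H2AFJ and 27 times in that of FAM19A4. Over 27305 genes with a promoter in the table, the median was 11 and the quartiles were 3 and 23, and 93.6% held at least 1. As many as in FAM19A4 were found in 17.3% of promoters, as many as in GFRA1 in 38.8% and as many as in H2AFJ in 40.8%. GC content was 66.8% for GFRA1, 55.2% for H2AFJ and 74.8% for FAM19A4, against a median of 58.0%. The ratio of observed to expected CG was 0.616, 0.876 and 0.791 in that order. All 3 windows thus passed 0.6 with a GC content over 50%, as 44.7% of all promoters did. The other GFRA1 windows held 4, 5 and 23 CG.

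Library totals were even, from 16058856 to 16648151 counts. A count of 0 allows up to 3 counts, or 0.181 to 0.187 CPM (counts per 1000000 counts of a library after scaling), and covers counting error only. SLC30A10 itself had 3 to 11 counts in its knockout, 6 to 9 in its control, 0 to 5 in the second knockout and 2 to 7 in the second control, so its RNA level did not show the deletion. Of 5 genes that mark the adherent HAP1 line (VIM, KRT8, KRT18, ABL1 and BCR), 0 were at 3 counts or fewer. Their summed level was 455.8 to 467.7 CPM in the SLC30A10 knockout, 687 to 755 in its control, 581 to 731 in the second knockout and 494 to 642 in the second control. Of 9 blood cell markers, 7 were at 3 counts or fewer in every SLC30A10 control library and 8 in the other groups. Of 4 neuron and glia markers, 0 were that low in 3 of the groups and 1 was in the SLC30A10 knockout. The summed level of these 4 was 11.4 to 13.4 CPM in the SLC30A10 knockout, against 19.9996 to 26.8 CPM in its control. The sums in the second knockout and its control were 22.5 to 33.9 and 17.1 to 20.1 CPM. Whether these marker levels have a part in the results below was not tested. In bulk RNA, fewer cells with a transcript and less of it per cell cannot be told apart.

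The counts of the SLC30A10 knockout and its control chose the genes, so they are given as a description with no test. All 6 lay at or under 3 counts in the knockout by that choice, where 20.2% of 15569 tested genes were called lower (edgeR quasi-likelihood test, Benjamini-Hochberg adjusted p under 0.05), and 2.20% of all genes by at least 2-fold, and 41.4% were called in either direction. Their libraries did not overlap between knockout and control, as for 38.3% of all tested genes. Nothing is read from these shares, since the rule used this contrast. All 6 passed the filter on low counts.

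LAYN had 0 counts in all 4 SLC30A10 knockout libraries and 270, 293, 243 and 306 in its control. Its control level of 16.9 ± 1.67 CPM (SD, n = 4) was the highest of the 6, and at least 91.0-fold above the floor of 3 counts per library. Counts in the second knockout were 364, 387, 329 and 384, and in the second control 347, 369, 339 and 358. The hyaluronan receptor was thus found in all 12 libraries other than the SLC30A10 knockout.

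H2AFJ had 0, 0, 0 and 1 counts in the SLC30A10 knockout and 192, 201, 170 and 199 in its control. The control level was 11.6 ± 0.852 CPM (SD, n = 4) and the ratio of control to knockout 749, with a 95% counting interval from 134 to 29613 that rests on that 1 count. Counts were 150, 166, 157 and 181 in the second knockout and 210, 216, 191 and 195 in the second control. The histone variant was present in all 12 other libraries, at 150 counts or more.

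GFRA1 was at 0 counts in every SLC30A10 knockout library, against 157, 144, 231 and 127 in the control. The level there was 10.0 ± 2.80 CPM (SD, n = 4), at least 54.0-fold above the floor, and library 3 was the highest. The second knockout had 43, 48, 34 and 30 counts and the second control 66, 70, 58 and 51. All 4 groups were separate for this co-receptor, with the SLC30A10 control on top.

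FAM19A4 had 0 counts in the SLC30A10 knockout and 139, 102, 102 and 129 in its control, where the level was 7.19 ± 1.16 CPM (SD, n = 4), at least 38.7-fold above the floor. The second knockout had 228, 207, 211 and 178 counts and the second control 81, 105, 73 and 83. The second knockout was thus above both control sets in every library for this secreted protein.

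EFEMP1 kept a trace in the SLC30A10 knockout, with 2, 1, 1 and 2 counts, against 96, 116, 105 and 93 in its control. The control level was 6.24 ± 0.619 CPM (SD, n = 4) and the ratio of control to knockout 67.1, with a 95% counting interval from 30.6 to 184. The second knockout had 0 counts in all 4 libraries and the second control 26, 21, 19 and 25. The matrix protein was thus near or at 0 in both knockouts, and every second control library lay below every SLC30A10 control library.

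GABRA5 had 0 counts in the SLC30A10 knockout and 103, 96, 115 and 88 in its control, at 6.12 ± 0.701 CPM (SD, n = 4), at least 32.9-fold above the floor. It was also at 0 counts in every library of the second knockout, against 68, 64, 64 and 75 in the second control. The receptor subunit was therefore seen in the control sets and in neither knockout.

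**Figure D1:**
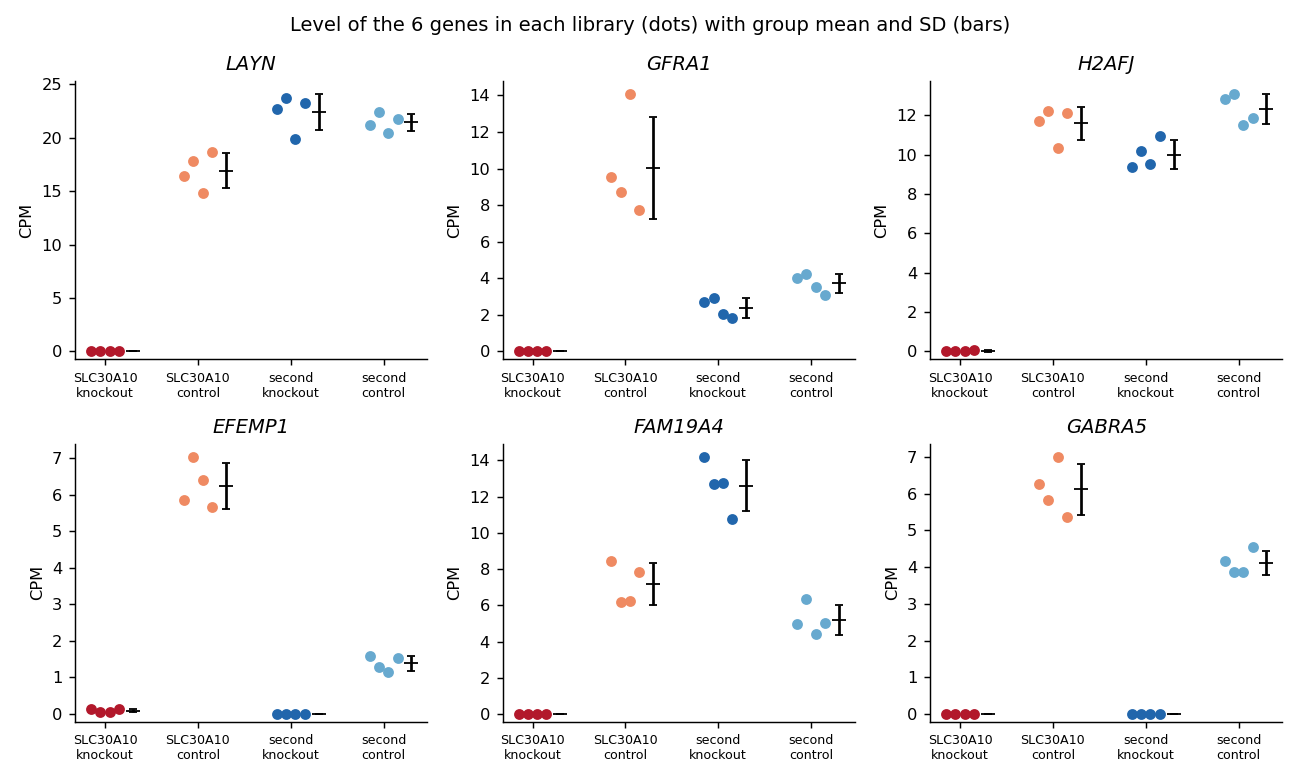
CPM of each of the 6 genes in every library (dots) of the 4 groups, with the group mean and SD (n = 4) as black bars. All dots of the SLC30A10 knockout lie at or next to 0, while in the second knockout LAYN, GFRA1, H2AFJ and FAM19A4 are present and EFEMP1 and GABRA5 are at 0.

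Per length of exon in GENCODE v29, LAYN was the highest of the 6 in the SLC30A10 control, at 5.38 CPM per kb. H2AFJ followed at 3.46, FAM19A4 at 2.18, EFEMP1 at 1.58, GABRA5 at 1.47 and GFRA1 at 1.04 CPM per kb. The libraries of EFEMP1 (1.43 to 1.78 CPM per kb) and GABRA5 (1.29 to 1.69 CPM per kb) overlapped, as did those of GABRA5 and GFRA1 (0.800 to 1.46 CPM per kb). The length joins all annotated exons, which come to 9678 bases for GFRA1 and 3144 for LAYN. The other neighbours in this order did not overlap.

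The second knockout was compared with the second control to see how the 6 genes behave under another deletion. The count rule did not use these 8 libraries. The grouping as lost in the SLC30A10 knockout alone did refer to the second knockout, and earlier results of these data were known. The shares below therefore describe the 6 genes and are no independent check of them. Of the 6 genes, 5 passed the threshold and 1, LAYN, did not. Across all tested genes 13.7% passed (edgeR quasi-likelihood test, Benjamini-Hochberg over 15569 genes). Of the 5, 4 were lower and 1 was higher, against 7.03% of all genes lower and 6.67% higher. In 5 of the 6 the libraries of both groups did not overlap, which held for 16.3% of all tested genes. A change of at least 2-fold was found in 3 of the 6, 1 higher and 2 lower, against 2.30% of all tested genes, 0.957% higher and 1.34% lower. The 6 directions were not alike: a loss in EFEMP1 and GABRA5, a rise in FAM19A4, smaller falls in GFRA1 and H2AFJ, and a level in LAYN that did not pass.

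GABRA5 fell from 4.11 ± 0.326 CPM (SD, n = 4) in the second control to 0 counts in all 4 second knockout libraries, at least 22.4-fold (edgeR adjusted p = 2.91e-12). EFEMP1 fell from 1.38 ± 0.208 CPM (SD, n = 4) to 0 counts in all 4 libraries, at least 7.53-fold (edgeR adjusted p = 9.86e-10). The smaller bound for EFEMP1 goes with its lower level in the second control. Both calls held under every alternative that tested these genes, and a minimum mean count of 50 removed both genes from the test.

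FAM19A4 rose from 5.19 ± 0.833 to 12.6 ± 1.41 CPM (SD, n = 4) in the second knockout, 2.43-fold, or 1.28 ± 0.13 (SE) on the log2 scale (edgeR adjusted p = 3.70e-08). All 4 second knockout libraries lay above all 4 of the second control. This is the gene of the 6 that had 0 counts in one knockout and rose in the other.

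GFRA1 fell by 0.65 ± 0.21 (SE) on the log2 scale, from 3.72 ± 0.520 to 2.37 ± 0.526 CPM (SD, n = 4), with an edgeR adjusted p of 0.0454. H2AFJ fell by 0.30 ± 0.09 (SE), from 12.3 ± 0.765 to 10.0 ± 0.733 CPM (SD, n = 4), with an edgeR adjusted p of 0.0225. In both, the libraries of the groups did not overlap. The call of GFRA1 was lost without replicate 1, 2 or 3 of the second control or replicate 1, 3 or 4 of the second knockout, with an adjusted p of 0.0540 to 0.132 by edgeR, and with a minimum mean count of 50 (0.0563). Over all alternatives its adjusted p was 0.00165 to 0.132. That of H2AFJ was lost without replicate 1 or 2 of the second control or replicate 1 or 3 of the second knockout, with an edgeR adjusted p of 0.0579 to 0.0763, and over all alternatives it was 0.0159 to 0.0763. LAYN was at 22.4 ± 1.70 and 21.4 ± 0.821 CPM (SD, n = 4), a log2 difference of 0.06 ± 0.08 (SE, edgeR adjusted p = 0.657), which does not show that the levels are equal.

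**Figure D2:**
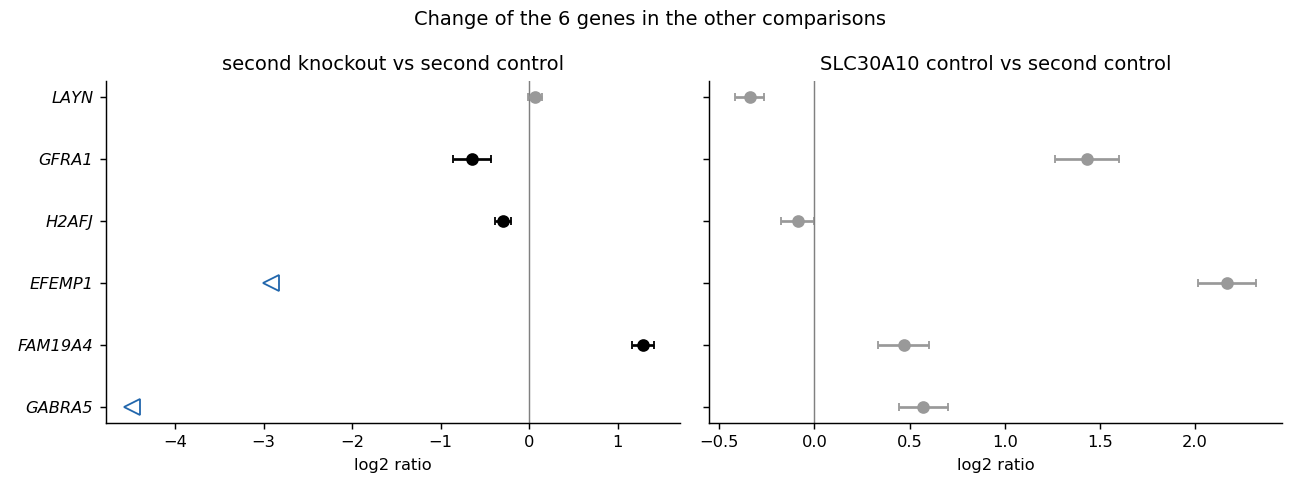
Log2 ratio ± SE of the 6 genes in the second knockout against its control (left) and in the SLC30A10 control against the second control (right), each from 4 against 4 libraries. On the left, black points passed an adjusted p of 0.05 (edgeR) and grey points did not. Points on the right are grey because no call is drawn there, and open triangles mark a ratio that is at most the value drawn, since the second knockout had 0 counts. EFEMP1 and GABRA5 are the triangles on the left, and EFEMP1 and GFRA1 have the largest differences on the right.

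The SLC30A10 control entered the rule that chose the genes, so its levels are set beside those of the second control as a description, with no test. EFEMP1 was at 6.24 CPM against 1.38 CPM in the second control, a log2 difference of 2.17 ± 0.15 (SE). GFRA1 was at 10.0 and 3.72 CPM, a difference of 1.43 ± 0.17 (SE). These were the largest differences of the 6.

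GABRA5 differed by 0.57 ± 0.13 (SE) and FAM19A4 by 0.47 ± 0.14 (SE) on the log2 scale, both with the higher mean in the SLC30A10 control. LAYN differed by -0.34 ± 0.08 (SE) and H2AFJ by -0.09 ± 0.09 (SE), with the lower mean there. The libraries of FAM19A4 and H2AFJ overlapped between the control sets and those of the other 4 genes did not. Between the control sets 39.3% of all tested genes passed an adjusted p of 0.05 by edgeR, 18.5% higher in the SLC30A10 control and 20.8% lower, 1.40% by at least 2-fold (0.854% higher and 0.546% lower), and in 36.3% the libraries did not overlap.

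The bounds were also set against the second control. The SLC30A10 knockout was then at least 115-fold lower for LAYN, at least 27.9-fold for FAM19A4, at least 22.1-fold for GABRA5 and at least 20.003-fold for GFRA1. For EFEMP1 the ratio was 14.9, with a 95% counting interval from 6.57 to 41.5, and for H2AFJ it was 795, from 142 to 31456. GFRA1 and EFEMP1 moved most, since their levels in the second control were the furthest below those of the SLC30A10 control. The lowest count of any of the 6 in a control library was 19, for EFEMP1.

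The count pattern was then searched in the whole table. Of 33121 rows, 28 had 3 counts or fewer in every SLC30A10 knockout library and 10 or more in every library of its control, the 6 genes among them. By control level the 6 ranked 1, 2, 5, 6, 7 and 8 of the 28. FUT9, which makes a fucosylated surface glycan, had the highest control level of the other 22 at 11.1 ± 1.44 CPM, and TLX3, a homeobox gene, the lowest at 0.639 CPM. Of the 28 rows, 17 were also at 3 counts or fewer in the second knockout, 10 had at least 10 counts in every library, and 1 lay between. Only 12 of the 17 had at least 10 counts in every second control library, so the 17 were not all lost in that experiment. EFEMP1 and GABRA5 belong to the 17, and LAYN, GFRA1, H2AFJ and FAM19A4 to the 10.

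The other 6 rows that kept at least 10 counts in the second knockout included TP53TG1, IFI16, CNTN1, LMX1A and JAKMIP1, which are named after their values were seen. The levels of the 6 in the SLC30A10 control were 0.685 to 3.29 CPM, below all 6 genes of the count rule. CNTN1, a neuronal adhesion protein, had 4.83 ± 0.933 CPM in the second knockout and 1.15 ± 0.505 in the second control (SD, n = 4). LMX1A, a homeobox factor of dopaminergic neurons, had 3.86 ± 1.02 and 0.652 ± 0.174 CPM there. JAKMIP1 had 2.80 ± 0.279 and 0.623 ± 0.282 CPM, and TP53TG1 5.11 ± 1.04 and 4.10 ± 0.557 CPM. IFI16 went the other way, with 1.25 ± 0.162 CPM in the second knockout and 3.61 ± 0.186 CPM in the second control.

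Rows just outside the rule show how it was drawn. EFEMP1, just inside, had at most 2 counts in a SLC30A10 knockout library. FASTKD2, an RNA-binding protein of the mitochondrial RNA granule, had 1 to 4 counts there and 60.1 CPM in the control, and CROT, a peroxisomal carnitine transferase, 0 to 4 counts and 7.84 CPM. In all, 13 rows had a highest knockout count of 4 or 5 with at least 10 in every control library.

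**Figure D3:**
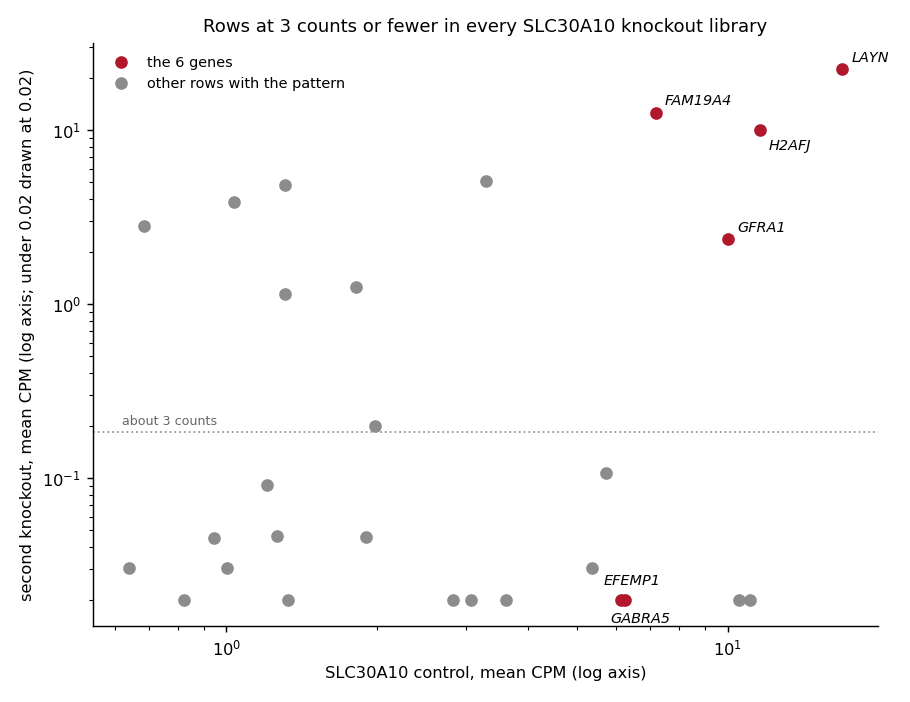
The 28 rows at 3 counts or fewer in every SLC30A10 knockout library and at least 10 in every library of its control, by mean CPM in the SLC30A10 control (x, log axis) and in the second knockout (y, log axis, values under 0.02 drawn at 0.02). The 6 genes are red and named, other rows are grey, and the dotted line marks about 3 counts. LAYN, H2AFJ, GFRA1 and FAM19A4 stand at the upper right, and EFEMP1 and GABRA5 at the bottom.

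The genes with the most similar profiles were looked for among 11595 genes with at least 5 CPM in the SLC30A10 control. The measure was the root-mean-square difference of centred log2 CPM over the 16 libraries. These include the SLC30A10 knockout and control libraries that the count rule used, so genes low in that knockout are favoured. The nearest genes are given as a description, and likeness apart from that loss was not tested. LAYN was nearest to FASTKD2 (0.48) and CROT (1.05), H2AFJ also to FASTKD2 (0.55) and CROT (0.68), and FAM19A4 to CROT (0.63) and FASTKD2 (0.98). GFRA1 was nearest to IRAK3 (0.75), an inhibitor of Toll-like receptor signalling, and CROT (0.87). IRAK3 had 0.311 ± 0.198 CPM in the SLC30A10 knockout, against 9.09 ± 0.892 in its control (SD, n = 4). In the second knockout GFRA1 was at 2.37 CPM against 3.72 CPM in the second control. IRAK3 was also lower there, at 3.54 against 5.37 CPM, while CROT was higher, at 8.65 against 6.83 CPM. GABRA5 was nearest to FUT9 (0.50) and TRPC4 (0.59), a cation channel, and both of these had 0 counts in every second knockout library. EFEMP1 was nearest to SHISA2 (0.65) and C14orf23 (0.87). SHISA2 had 8.05 ± 0.357 and 4.93 ± 0.472 CPM in the control sets, and 0.527 ± 0.276 and 0.229 ± 0.103 CPM in the SLC30A10 and second knockouts (SD, n = 4).

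Neighbouring genes were examined to see whether RNA from the rest of each region was still present. The 3 tested genes on either side of each of the 6, 36 in all, were taken in RefSeq order. In the SLC30A10 knockout 17 of the 36 passed the threshold, 5 higher and 12 lower, against 41.4% of all tested genes, 21.2% higher and 20.2% lower (edgeR quasi-likelihood test, Benjamini-Hochberg). The median log2 fold change of the 36 was -0.04. Of these 17, 3 reached 2-fold, which 4.51% of all tested genes did (2.31% higher and 2.20% lower). For the second knockout 4 of 36 passed, 1 higher and 3 lower, against 13.7% of all tested genes, and their median was 0.03. Of the 36, 17 also passed between the control sets, 8 higher in the SLC30A10 control and 9 lower, against 39.3% of all tested genes. The SLC30A10 control is shared by that comparison and the one with its knockout, so the level in the second control is given below beside the genes that changed in the SLC30A10 knockout.

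LAYN, GFRA1, H2AFJ, EFEMP1 and FAM19A4 had expressed neighbours in the SLC30A10 knockout. WBP11, a splicing protein 6.58 kb from H2AFJ, had 3197 to 3441 counts there, and its log2 fold change was -0.07 ± 0.04 (SE, edgeR adjusted p = 0.115). SIK2, a kinase 40.7 kb from LAYN, had 398 to 450 counts and a change of 0.08 ± 0.07 (SE, edgeR adjusted p = 0.389). Of the 6 tested neighbours of GFRA1, 2 passed, 1 higher and 1 lower. TRUB1, 1079 kb from GFRA1, had 758 to 829 counts and a change of -0.02 ± 0.06 (SE, edgeR adjusted p = 0.797). HSPA12A, 396 kb from GFRA1, had 870 to 1012 counts and rose by 0.39 ± 0.07 (SE, edgeR adjusted p = 7.20e-05). HSPA12A was at 59.3 CPM in the SLC30A10 knockout, 45.4 in its control and 50.9 in the second control. PNPT1, a mitochondrial ribonuclease 172 kb from EFEMP1, had 2013 to 2180 counts and a change of -0.01 ± 0.05 (SE, edgeR adjusted p = 0.833). EOGT, a glycosyltransferase 42.7 kb from FAM19A4, had 218 to 275 counts and fell by 0.37 ± 0.09 (SE, edgeR adjusted p = 0.00146). EOGT was at 15.3 CPM in the SLC30A10 knockout, 19.8 CPM in its control and 15.2 CPM in the second control, and the control sets differed by 0.38 ± 0.09 (SE, edgeR adjusted p = 0.00128). On the far side of EFEMP1, 1984 kb away and further, VRK2, FANCL and BCL11A fell by 0.50, 0.39 and 0.33 on the log2 scale. VRK2 was at 20.7 CPM in the SLC30A10 knockout, 29.3 in its control and 21.9 in the second control, where the control sets differed by 0.42 ± 0.08 (SE, edgeR adjusted p = 0.000118). FANCL (28.2, 36.9 and 37.5 CPM) and BCL11A (27.4, 34.4 and 41.5 CPM) were lower in the knockout than the mean of either control set.

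The 3 neighbours past 2-fold were all lower. ATRNL1, 108 kb from GFRA1, fell by 2.00 ± 0.21 (SE) in the SLC30A10 knockout, from 3.32 ± 0.642 to 0.822 ± 0.175 CPM (SD, n = 4), against 2.55 ± 0.440 CPM in the second control, and did not pass in the second knockout (edgeR adjusted p = 0.213). EMP1, a membrane protein 1554 kb from H2AFJ, fell by 1.91 ± 0.18 (SE) and rose by 0.60 ± 0.20 (SE) in the second knockout. EMP1 was at 1.08 CPM in the SLC30A10 knockout and 1.34 CPM in the second control, against 4.11 CPM in the SLC30A10 control, and the control sets differed by 1.62 ± 0.17 (SE, edgeR adjusted p = 1.19e-07). ARHGAP20, 827 kb from LAYN, fell in both knockouts, by log2 values of -2.52 ± 0.25 (SE) with SLC30A10 deleted and -2.47 ± 0.20 (SE) in the other line. Its level was 0.356 CPM in the SLC30A10 knockout, 2.09 in its control and 3.42 in the second control. All 3 had counts in every SLC30A10 knockout library, from 5 to 20.

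**Figure D4:**
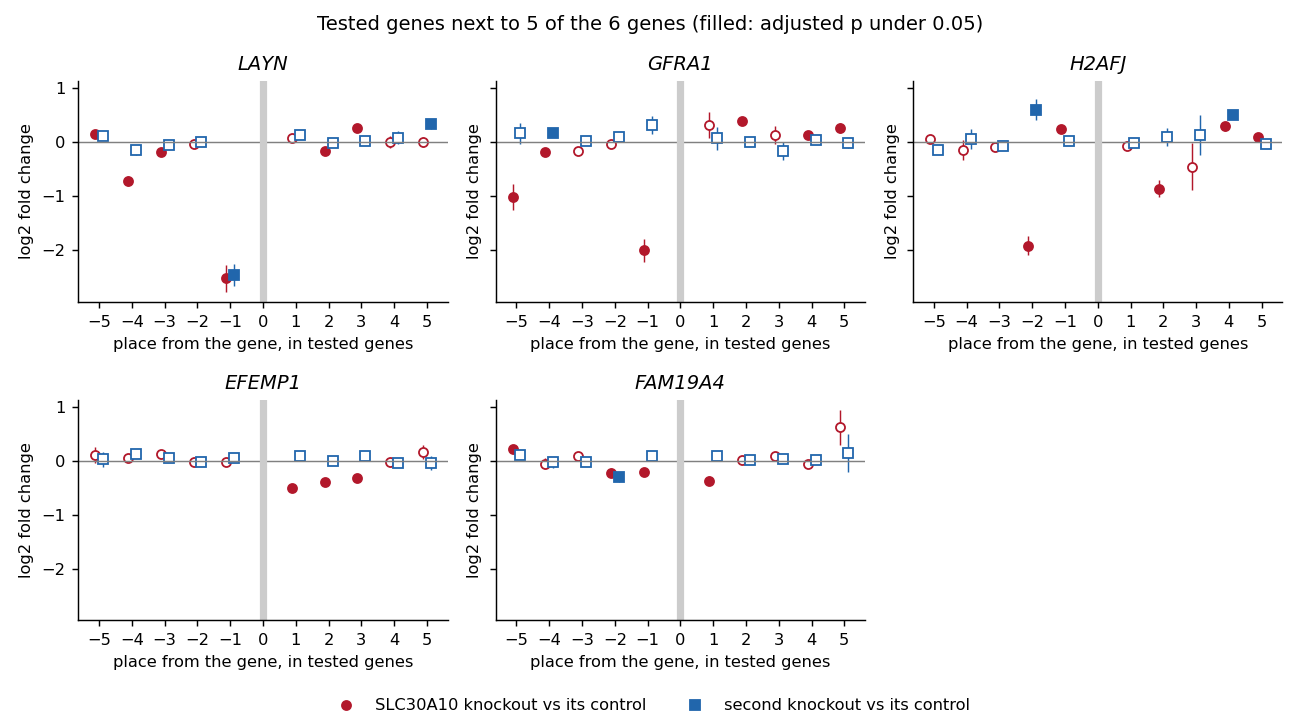
Log2 fold change ± SE of the 5 tested genes on either side of LAYN, GFRA1, H2AFJ, EFEMP1 and FAM19A4, by their place in RefSeq order (negative: lower coordinate), for each knockout against its own control (4 against 4 libraries, edgeR, filled when adjusted p is under 0.05). Most neighbours lie near 0 in both knockouts, and ARHGAP20 beside LAYN and ATRNL1 beside GFRA1 are the low points next to the grey lines.

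Relatives and partners of the 6 genes were taken from 7 lists with 148 genes, of which 96 were tested. In the SLC30A10 knockout 48 passed, 21 higher and 27 lower, and in the second knockout 11 passed, 4 higher and 7 lower (edgeR quasi-likelihood test, Benjamini-Hochberg). Of all tested genes 41.4% passed in the SLC30A10 knockout, 21.2% higher and 20.2% lower. In the second knockout 13.7% passed, 6.67% higher and 7.03% lower. The single lists below are small, and their counts are given as a description beside these shares. The median log2 fold changes of the 96 were -0.03 and -0.02, against -0.005 and -0.002 over all tested genes.

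Around GFRA1, 3 of 6 tested genes of GDNF signalling passed with SLC30A10 deleted, and 0 did in the second knockout (edgeR, where 1 had an unadjusted p under 0.05, and DESeq2 called 0). RET, the kinase that GFRA1 serves, rose by 0.55 ± 0.09 (SE, edgeR adjusted p = 7.46e-06), from 20.8 ± 1.89 to 30.5 ± 2.40 CPM (SD, n = 4), and the ligand neurturin (NRTN) rose by 0.46 ± 0.10 (SE). The ligand artemin (ARTN) fell by 1.52 ± 0.42 (SE) from 6 to 10 counts per library to 2 or 3. RET and NRTN were also lower in the SLC30A10 control than in the second control, by log2 differences of -0.40 ± 0.09 and -0.45 ± 0.10 (SE). The second control was at 27.4 CPM for RET and 11.9 CPM for NRTN, where the SLC30A10 knockout had 12.1 CPM of NRTN. GDNF itself had 0 to 7 counts and the sister receptors GFRA2, GFRA3, GFRA4 and GFRAL 0 to 9, and none of these was tested.

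Of 13 tested GABA-A receptor subunits and anchors, 7 passed in the SLC30A10 knockout, 6 higher and 1 lower. Among them GABRQ, the theta subunit, rose by 0.56 ± 0.17 (SE) and GABARAPL1, a relative of the GABA-A receptor-associated protein, by 0.47 ± 0.07 (SE). GABARAPL1 was at 34.3 CPM in both knockouts and 32.7 CPM in the second control, against 24.7 CPM in the SLC30A10 control, and the control sets differed by -0.40 ± 0.07 (SE, edgeR adjusted p = 9.08e-05). GABRQ was at 2.85 CPM in the SLC30A10 knockout, 1.93 in its control and 2.43 in the second control. The second knockout had 2 that passed, both lower. GABRB2, the beta-2 subunit, fell there, with a log2 fold change of -5.03 ± 0.37 (SE, edgeR adjusted p = 4.48e-11), from 43 to 72 counts per library to 0 to 3. In the SLC30A10 knockout its change was -0.41 ± 0.19 (SE, edgeR adjusted p = 0.0773), with 30 to 51 counts. The alpha subunits GABRA2, GABRA3, GABRA4 and GABRA6 had 0 or 1 counts in all 16 libraries, below the 64 to 115 of GABRA5 in the control libraries.

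Of the FAM19A family and the neurexins, its synaptic binding partners, 3 genes were tested and all 3 passed in the SLC30A10 knockout. FAM19A5 rose by 3.07 ± 0.30 (SE, edgeR adjusted p = 3.76e-09), from 2 to 4 counts per library to 26 to 37, and NRXN2 rose by 0.79 ± 0.06 (SE). NRXN3 fell by 1.55 ± 0.15 (SE) with SLC30A10 deleted and rose by 1.13 ± 0.13 (SE, edgeR adjusted p = 4.07e-07) in the second knockout, where 1 of the 3 passed. Between the control sets NRXN3 differed by 0.87 ± 0.14 (SE) and NRXN2 by -0.55 ± 0.06 (SE). Both NRXN3 (1.75, 5.15 and 2.81 CPM) and NRXN2 (53.2, 30.8 and 45.1 CPM) had a mean in the second control between that of the SLC30A10 knockout and that of its control. FAM19A1, FAM19A2 and FAM19A3 had 0 to 10 counts.

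Among fibulins and elastic fibre proteins, the relatives of EFEMP1, 9 of 17 tested genes passed in the SLC30A10 knockout, 4 higher and 5 lower, and 4 in the second knockout, 1 higher and 3 lower. MFAP2, a microfibril protein, fell in both, by log2 values of -3.28 ± 0.28 (SE) with SLC30A10 deleted and -4.57 ± 0.42 (SE) in the other line. It had 31 to 50 counts per library in the SLC30A10 control and 1 to 7 in the knockout, and 24 to 32 in the second control and 1 in every library of the second knockout. The microfibril gene FBN1 fell by 1.70 ± 0.08 (SE) in the SLC30A10 knockout, from 43.7 ± 1.80 to 13.4 ± 1.77 CPM (SD, n = 4), and rose by 0.59 ± 0.07 (SE) in the second knockout. The second control had 37.9 CPM of FBN1. HMCN2, a hemicentin, rose by 1.12 ± 0.27 (SE) in the former and fell by 1.07 ± 0.34 (SE) in the latter, at 22 counts or fewer.

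For the hyaluronan receptors and enzymes around LAYN, 5 of 14 tested genes passed in the SLC30A10 knockout, 1 higher and 4 lower. TMEM2, a hyaluronidase, fell by 0.50 ± 0.05 (SE) and EZR, which links membrane to actin, by 0.32 ± 0.04 (SE), while its relative MSN rose by 0.34 ± 0.03 (SE). EZR was at 218 CPM in the SLC30A10 knockout, 221 in the second knockout and 230.1 in the second control, against 273 in the SLC30A10 control, and the control sets differed by 0.25 ± 0.04 (SE, edgeR adjusted p = 5.03e-05). From knockout to its control to the second control, TMEM2 (93.7, 132 and 153 CPM) was lower and MSN (363, 285 and 289 CPM) higher in the knockout than the mean of either control set. CD44, the main hyaluronan receptor, was the 1 gene that passed in the second knockout, where it fell by 2.36 ± 0.31 (SE, edgeR adjusted p = 2.29e-06), from 24 to 32 counts per library to 2 to 9. In the SLC30A10 knockout, where LAYN was at 0 counts, CD44 had 35 to 44 counts, against 23 to 42 in the control, a change of 0.40 ± 0.20 (SE, edgeR adjusted p = 0.111).

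Of 10 tested genes in the list of histone H2A genes, 5 passed in the SLC30A10 knockout, 2 higher and 3 lower. H2AFZ, a variant at active promoters, fell by 0.42 ± 0.06 (SE), and the macroH2A gene H2AFY rose by 0.28 ± 0.03 (SE). H2AFZ was at 347 CPM in the knockout, 463 in its control and 382 in the second control, and H2AFY at 265, 218 and 237 CPM. The control sets differed by 0.28 ± 0.06 (SE) for H2AFZ and by -0.11 ± 0.03 (SE) for H2AFY. HIST1H2AG, a clustered H2A gene whose reads near-identical copies can share, fell by 0.71 ± 0.26 (SE, edgeR adjusted p = 0.0318). Its counts per library went from 22 to 27 in the SLC30A10 control to 10 to 23 in the knockout. The means were 0.931 CPM in the knockout, 1.52 in its control and 1.08 in the second control. DESeq2 called 4 of the 10 tested genes in the SLC30A10 knockout. H2AFY2, the other macroH2A, was the 1 gene that passed in the second knockout, where it rose by 0.88 ± 0.05 (SE, edgeR adjusted p = 6.98e-13). Near-identical copies can take part of the reads of H2AFJ as well.

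The proteins of DNA methylation and the Polycomb complexes, which keep genes off through marks on DNA and histones, were listed as well. Of 34 tested, 17 passed in the SLC30A10 knockout, 4 higher and 13 lower, with a median log2 fold change of -0.09, and 2 in the second knockout, 1 higher and 1 lower. EZH2, the Polycomb methyltransferase, fell by 0.45 ± 0.04 (SE) from 135 ± 3.20 to 98.9 ± 5.33 CPM (SD, n = 4), against 124 ± 5.58 CPM in the second control. BMI1, a subunit of the other Polycomb complex, fell by 0.38 ± 0.12 (SE), to 4.44 CPM from 5.78, with 4.98 CPM in the second control. PHF19 in the second knockout fell by 0.18 ± 0.06 (SE, edgeR adjusted p = 0.0349) and JARID2 rose by 0.17 ± 0.05 (SE, edgeR adjusted p = 0.0242).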

How the data were processed

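Poly-A RNA was measured in 16 HAP1 libraries, grouped by title and genotype in the labels. The gene deleted in the second knockout and some other genes are not reported here by name. The authors deposited a table of raw counts per gene symbol and a table of normalized signal. Each column of the latter equals the counts of the same library times a constant, within 5.09e-06 counts over the 10667 rows compared. The submitters' processing notes name HISAT2, featureCounts, DESeq2, hg38 and GRCh38, with no role or version. Annotation, strand and filters are not given in the sources used here. The 6 genes and the lists were chosen with earlier results of these data known.

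The test was that of edgeR 4.0.16, run under R 4.3.3. The expression filter (minimum count 10, minimum total 15) left 15569 genes. Scaling used edgeR's TMM factors, and 1 model with a mean per group held all 16 libraries. Quasi-likelihood F tests were adjusted by the Benjamini-Hochberg method at 0.05, and the SE is the log2 fold change divided by the root of F. Groups at 0 counts are given as bounds against 3 counts per library, and 1 to 6 counts as ratios with exact 95% intervals. The procedure was tested on simulated data. Replicate pairs differed beyond sampling noise (chi-square per degree of freedom 1.64 to 6.83). Symbols turned into dates (28 rows) were kept and not named.

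RefSeq (GRCh38.p14) placed 90.8% of the tested genes. Named genes were the 6, SLC30A10, their 3 tested neighbours per side, up to 3 called genes per list and knockout by fold change, the 2 most similar genes each, and the highest and lowest other rows with the pattern. Alternatives were other scalings (the deposited one added after seeing the data), DESeq2 1.42.0, other filters and thresholds, 8 libraries, the replicate block, and leaving out each library.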

Additional observations from a re-analysis of the deposited data

Results flagged for a closer look

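FAM19A4 moved in opposite directions in the knockouts. Every SLC30A10 knockout library was at 0 counts and below its control, and every second knockout library was above the second control, with a log2 fold change of 1.28. The difference was not tested, because the SLC30A10 comparison chose the gene.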

How the results depend on the processing

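Depth limits the values of genes at 0 counts to bounds. Same-numbered libraries correlated at -0.03 (SLC30A10 experiment), 0.05 (second experiment) and 0.02 (control sets) on average, and in no comparison was every pair over 0.1. The main test therefore used no pairing. Libraries with different numbers were not correlated as a reference, so a pairing by number is not excluded. The replicate block changed no call of the 6 genes in the second knockout. With it 5 of the 6 genes passed there. The genes called overall were 1975 in the second knockout and 6096 between control sets, with 6362 in the SLC30A10 knockout. No calls of the 6 genes are given between control sets, since the rule used the SLC30A10 control. A 2-fold change lowered the called genes to 702 in the SLC30A10 knockout, 358 in the second knockout and 218 between control sets. It left 3 of the 6 genes in the second knockout. In the SLC30A10 and second knockouts it left 3 and 1 neighbours, and 6 and 5 related genes. In the second knockout an adjusted p under 0.01 left 1229 genes, 3 of the 6, 2 neighbours and 7 related genes. A mean count of at least 50 left 2 of the 4 that remained, 2 neighbours and 7 related genes there. Taking 5 neighbours per side gave 27 and 7 called of 60. Leaving out 1 library each, 3 to 5 of the 6 genes and 2 to 4 neighbours passed in the second knockout; 2 neighbours passed without replicate 3 of the second control or replicate 2 of the second knockout. The median bound of the 4 genes at 0 counts was 139-fold with a floor of 1 count and 25.02-fold against the second control. The pattern was met by 14 rows at 1 count or fewer and by 12 at 50 or more control counts. No direction of any of the 6 genes reversed under the alternatives run.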

Other observations

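By the same count rule, 41 rows had 3 counts or fewer in every second knockout library and 10 or more in every library of its control. Of these, 12 met the rule in both knockouts, which is 42.9% of the 28 rows of the SLC30A10 knockout and 29.3% of the 41. The knockouts have separate control sets. In the opposite direction, 7 rows had 3 counts or fewer in every SLC30A10 control library and 10 or more in every knockout library.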
